A study of Mus musculus with 53 samples.

Results

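Polycomb and trithorax chromatin regulators were described in mouse embryonic stem cells in which the transcription factor Tbx3 was reduced or tagged. The set was a list of 46 genes, chosen with earlier results of these data known. Of these, 44 were among the 11647 genes of the bulk RNA table and 45 among the 23235 genes of the single-cell table. All 46 could be placed on the mm9 genome. Cbx8 was not listed in the bulk table, and Setd1b in neither expression table. The list held 9 genes of Polycomb repressive complex PRC2, 14 of complex PRC1, 7 of the COMPASS methyltransferases, 8 of the BAF remodelling complex and ARID family, and 8 of the NuRD complex and the CHD remodellers.

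All cells were of R1, an embryonic stem cell line, grown with serum and the cytokine LIF and without a feeder layer. The allele set held 1 library each of cells with both Tbx3 alleles intact (Tbx3 +/+), heterozygous cells (Tbx3 +/N) and cells labelled null (Tbx3 N/N). The hairpin set held 1 library each of wild-type cells with a luciferase hairpin (shLuc) or a Tbx3 hairpin (shTbx3). A list of 3078 Tbx3 sites came from N/N cells that carried the biotin ligase BirA and a Flag-Biotin-Tbx3 protein, bfTbx3, with N/N cells carrying BirA alone as the negative control. A further table held 45 single wild-type cells, sorted as SSEA1+ and DAPI-, and 1 pool of such cells. Each bulk group was 1 library and the cells had no named culture, so no p-value is given and no difference has a replicate check. The labels do not say whether the allele lines were single clones, or which part of Tbx3 was deleted.

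Polycomb and trithorax proteins keep genes silent or active through cell divisions by writing and reading marks on histones. PRC2 methylates lysine 27 of histone H3 through the enzymes Ezh1 or Ezh2, and PRC1 attaches ubiquitin to histone H2A through Rnf2 or Ring1. COMPASS complexes methylate lysine 4 of histone H3 at active starts, BAF complexes move nucleosomes with the energy of ATP, and NuRD couples remodelling to histone deacetylation. In embryonic stem cells Polycomb complexes cover the starts of many developmental regulators.

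Levels are in FPKM, a count of fragments divided by transcript length and by the total of the library, and read depth is not stated. Where 5 values follow each other, the order is +/+, +/N, N/N, shLuc and shTbx3. Tbx3 itself was at 44.4, 22.5, 15.1, 13.8 and 5.09 FPKM, lowest within each set with both alleles targeted or with its own hairpin. The 7 embryonic stem cell markers summed to 1870 to 2603 FPKM over the 5 libraries. Other markers moved between libraries. The 7 fibroblast markers listed of 8 (Col3a1 was not listed) summed to 46.4, 115, 119.7, 8.20 and 18.1 FPKM, and the 7 endoderm markers listed of 9 (without Foxa2 and Sox7) to 45.96, 12.7, 7.36, 13.5 and 16.8 FPKM. The 4 primitive streak and mesoderm markers listed of 6 (without Mixl1 and Mesp1) summed to 70.9 FPKM in shTbx3 and to 2.33 to 3.51 in the others, and the 5 antigen-presenting cell markers listed of 7 (without H2-Aa and Ptprc) to 86.4 in shLuc and 6.71 to 10.5 in the others. The part of these populations in the differences of the chromatin regulators was not tested. The share of summed FPKM taken by small RNA genes was 19.6% to 22.7% for the allele libraries but 5.42% to 7.24% for the hairpin libraries, so differences were taken within each set. Across the 44 measured members, Pearson r of log2(FPKM + 1) between libraries was 0.923 to 0.994, as a description.

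Every PRC2 gene of the list lay near a Tbx3 site. Of the 46 members, 16 (34.8%) had a site within 20 kb of their start, beside 9.59% of 22238 protein-coding genes and 14.9% of the 11094 protein-coding genes placed from the bulk table. The 16 comprised 9 of 9 PRC2 genes (Ezh1, Ezh2, Eed, Suz12, Jarid2, Mtf2, Phf19, Rbbp4 and Rbbp7), 2 of 14 PRC1 genes (Ring1 and Phc1), 2 of 7 COMPASS genes (Setd1a and Setd1b), 1 of 8 BAF and ARID genes (Smarcc1) and 2 of 8 NuRD and CHD genes (Chd7 and Mbd3). The share over all members thus rested largely on PRC2. Outside it the shares were 14.3% in PRC1, 28.6% in COMPASS, 12.5% in BAF and ARID and 25% in NuRD and CHD. Of 55 placed chromatin regulators outside the list, 16 (29.1%) had a site within 20 kb. Of 36 developmental genes known as Polycomb targets 3 (8.33%) had a site, close to the share over all coding genes. No test was made of these shares, and the sites came from 1 list. The members and lists were chosen with earlier results of these data known, so the shares are descriptions only.

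In total 26 of the 3078 sites lay within 20 kb of a member. The highest deposited score among them was at Phc1, which encodes a polyhomeotic subunit of PRC1, where a site of score 304.58 lay over the start and ranked 101 among all sites, whose scores ran from 50.01 to 791.25 with a median of 76.65. Jarid2, which encodes a factor that brings PRC2 to chromatin, had a site of score 250.71 that ended 414 bp before its start, in intergenic sequence. The central 201 bases of 6 sites are shown to let the promoter sites of Phc1 and Jarid2 be read beside PRC2 sites that hold a searched motif; they are mm9, plus strand, and capitals mark motif matches.
Phc1 start site, chr6:122290568-122290768: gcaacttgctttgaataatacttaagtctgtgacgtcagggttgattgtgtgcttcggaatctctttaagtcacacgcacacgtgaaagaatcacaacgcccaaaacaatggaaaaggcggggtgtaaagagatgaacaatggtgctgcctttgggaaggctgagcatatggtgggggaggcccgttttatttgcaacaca
Phc1 octamer site, chr6:122291159-122291359: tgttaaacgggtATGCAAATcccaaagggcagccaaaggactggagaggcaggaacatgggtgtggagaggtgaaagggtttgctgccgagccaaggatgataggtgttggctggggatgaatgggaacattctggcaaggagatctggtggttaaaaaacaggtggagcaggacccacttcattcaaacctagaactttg
Phc1 upstream site, chr6:122292311-122292511: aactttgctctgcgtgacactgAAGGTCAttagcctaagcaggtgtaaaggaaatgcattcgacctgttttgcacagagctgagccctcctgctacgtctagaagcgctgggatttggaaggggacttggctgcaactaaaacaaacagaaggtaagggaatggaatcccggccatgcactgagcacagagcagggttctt
Jarid2 site, chr13:44823997-44824197: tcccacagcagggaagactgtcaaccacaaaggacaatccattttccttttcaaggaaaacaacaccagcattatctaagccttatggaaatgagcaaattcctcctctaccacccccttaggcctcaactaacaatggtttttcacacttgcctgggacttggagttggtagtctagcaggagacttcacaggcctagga
Eed intron site, chr7:97124212-97124412: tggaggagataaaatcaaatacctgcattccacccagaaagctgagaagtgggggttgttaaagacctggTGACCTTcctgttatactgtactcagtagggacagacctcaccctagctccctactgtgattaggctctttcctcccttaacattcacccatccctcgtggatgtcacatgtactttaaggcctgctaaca
Phf19 upstream site, chr2:34778317-34778517: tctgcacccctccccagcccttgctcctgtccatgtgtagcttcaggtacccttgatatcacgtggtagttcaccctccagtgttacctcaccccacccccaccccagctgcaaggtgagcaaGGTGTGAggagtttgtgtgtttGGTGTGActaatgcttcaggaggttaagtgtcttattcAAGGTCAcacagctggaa

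The Phf19 site held the T-box core GGTGTGA at 2 places and the core of the Esrrb motif, AAGGTCA, at 1 place. It was the 1 of the 26 member sites (3.85%) with a T-box core in its central 201 bases, where 7.70% of all 3078 sites held that core (searched also as TCACACC) and 2.96% of windows of equal width 2 kb to either side did. The Esrrb core (or TGACCTT) was in 4 of the 26 (15.4%), those at Phc1, Eed, Phf19 and Setd1b, in 9.84% of all sites and in 3.91% of the flanks. The octamer ATTTGCAT (or ATGCAAAT), bound by Pou5f1 and its relatives, was in 1 of the 26, the second Phc1 site, in 5.23% of all sites and in 1.25% of the flanks. A GC box (GGGGCGGGG or CCCCGCCCC) was in 0 of the 26 and in 5.00% of all sites. Over the whole length of the sites, the members' share was the higher for each motif. There the T-box core was in 4 of the 26 (15.4%) and 13.5% of all sites, the octamer in 4 (15.4%) and 8.45%, the Esrrb core in 7 (26.9%) and 20.3%, and the GC box in 3 (11.5%) and 10.04%. With 26 sites, some of them at one gene, none of these shares was tested. The site over the Phc1 start and the Jarid2 site held none of these letters in their central windows. None of the 4 searched sequences is contained in another, and a match is a description of the window.

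The catalytic genes of PRC2 had distal sites. Ezh1 had 2 intergenic sites, of scores 83.48 and 99.25, that began 4213 and 7494 bp upstream of its start, and Ezh2 had 1 of score 76.65, 12958 bp upstream. Eed, which encodes the subunit that binds methylated lysine 27, had a site of score 67.93 in its own intron, 4951 bp downstream. Suz12, a core subunit needed for activity, had a site of score 214.14 lying 13074 bp upstream and one of 52.97 over its start. Mtf2 and Phf19 encode Polycomb-like proteins that bind the complex. Mtf2 had a site of score 110.06 in its intron 11207 bp downstream, and Phf19 one of 64.77 lying 8659 bp upstream. The histone chaperone genes Rbbp4 and Rbbp7, whose products serve PRC2 and NuRD alike, had a site of score 52.66 over the start and one of 209.9 lying 3823 bp upstream. The Rbbp4 site also overlapped an exon of its neighbour Zbtb8os.

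Outside PRC2, sites lay over the starts of Phc1, Smarcc1, Chd7 and Mbd3, while those of Setd1b, Ring1 and Setd1a were distal. Phc1 had sites of scores 183.32 and 193.69 at 473 and 1572 bp upstream besides the one over its start. Smarcc1, a core BAF subunit, had a site of score 106.73 over its start. Chd7 had one of 58.54 over the start and one of 64.08 lying 1767 bp upstream, and Mbd3, a NuRD subunit gene, had one of 63.52 over the start. Setd1b, a methyltransferase gene, had 4 sites of scores 53.24 to 131.27, from 4183 to 15739 bp from its start. Those of scores 53.24 and 131.27 were nearest to Rhof and, like that of 76.05, lay in an exon of AI480526. The Ring1 site, 6538 bp upstream, lay over the start of Slc39a7, and that of Setd1a, 7404 bp upstream and in an exon of Fbxl19, was nearest to Orai3. Counting only sites whose nearest coding start was the gene itself left 14 members, the 9 PRC2 genes among them, beside 6.32% of coding genes.

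The count of members moved with the window. Within 1 kb it was 7 of 46 (2.92% of coding genes) and within 5 kb 11 (4.36%), of which 6 were PRC2 genes. Within 50 kb it was 23 (18.4%). With sites at or above the median score it was 9 (4.77%), again with 6 PRC2 genes: Ezh1, Ezh2, Suz12, Jarid2, Mtf2 and Rbbp7. The site nearest the edge inside 20 kb was one of Jarid2 at 17160 bp, and the nearest outside were a further Jarid2 site at 23469 bp, 1 of Phc1 at 25610 bp and 1 of Chd1 at 26670 bp.

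**Figure D1:**
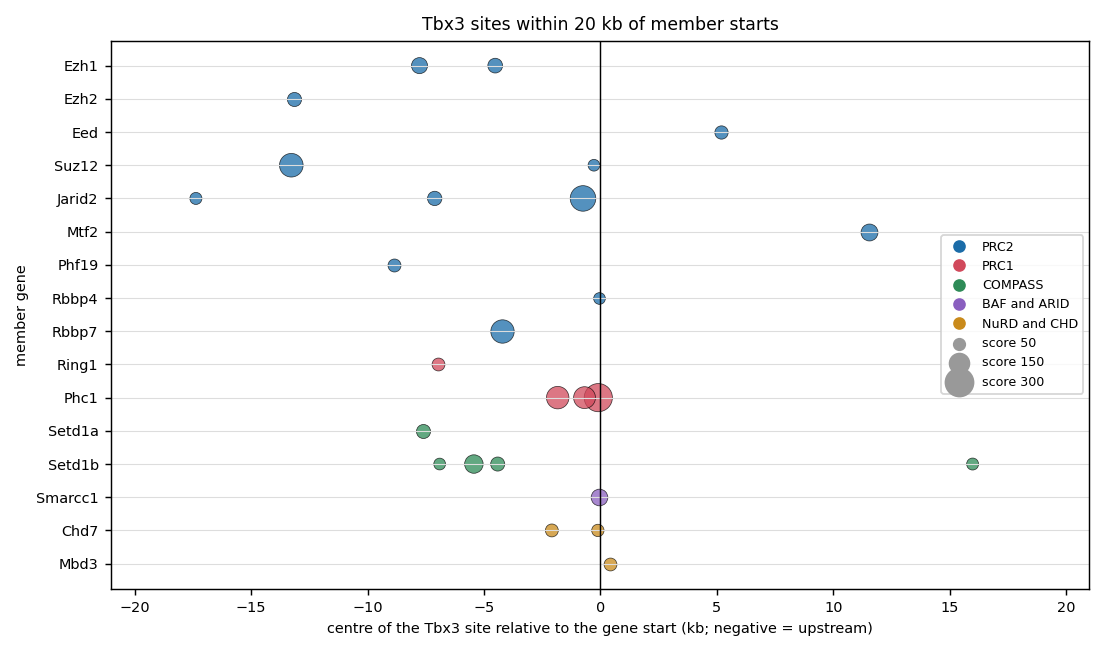
Tbx3 sites around the starts of the members that have one, with the distance of each site's centre from the start on the x axis (kb) and genes on the y axis, coloured by complex; marker size grows with the deposited score. All 9 PRC2 genes carry at least 1 site, and the largest markers lie at Phc1 (304.58) and Jarid2 (250.71).

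In N/N cells the listed PRC2 genes were mostly a little higher than in +/+ and the 8 listed BAF and ARID genes all a little lower. On the log2((FPKM + 1)/(FPKM + 1)) scale, used for every difference here, the median over 9 PRC2 genes was 0.21, with 7 of 9 above 0, and over 8 BAF and ARID genes -0.21, with 0 of 8 above 0. Over all 11478 genes that reached 1 FPKM in one of the libraries the median was -0.03 and 46.04% were above 0. The PRC1 median was -0.16 (3 of 13 above 0), that of COMPASS -0.20 (2 of 6) and that of NuRD and CHD -0.14 (3 of 8). In bulk RNA fewer cells of a type and less RNA per cell cannot be told apart.

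Past 1.5-fold, 3 of 44 members were higher in N/N than in +/+ (Ezh1, Phf19 and Pcgf1), beside 5.45% of all genes, and 1 was lower (Kdm2b), beside 6.47%. These counts are near the background. In +/N against +/+, 1 member was higher (Ezh1; 2.44% of all genes) and 1 lower (Brd7; 4.91%). With the median over genes of at least 5 FPKM in both libraries set to 0, the +/N counts were 2 higher (Ezh1 and Phf19), beside 3.95% of all genes, and 1 lower (Brd7), beside 3.08%. That median was -0.12. In N/N against +/N, 1 member was higher (Pcgf1; 0.977%) and 0 were lower (0.801%), and with the median set to 0 the counts were 0 (0.669%) and 0 (1.17%). The N/N and +/N comparisons share the +/+ library, so a value that was low or high there enters both.

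Ezh1, the less active of the 2 PRC2 methyltransferases, was at 10.99, 18.02, 22.9, 12.05 and 9.75 FPKM. It stood lowest in +/+ and highest in N/N within the allele set, and the hairpin pair differed by -0.28 in the other direction. Its difference was 1.00 in N/N against +/+, just short of 2-fold, 0.67 in +/N against +/+ and 0.33 in N/N against +/N. Ezh2, the main methyltransferase of dividing cells, was at 43.5, 48.9, 53.01, 62.3 and 53.5 FPKM. The ratio of Ezh2 to Ezh1, both per length, was 3.96, 2.71, 2.31, 5.17 and 5.49. Ezh2 was thus the higher of the pair in each of the 5 libraries, and the ratio was lowest in N/N. The longest coding transcripts of Ezh1 and Ezh2 share 0 stretches of 26 bases.

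Phf19 was at 7.93, 12.05, 15.95, 3.71 and 4.67 FPKM. Like Ezh1 it was lowest in +/+ and highest in N/N of the allele set, with differences of 0.92 in N/N and 0.55 in +/N against +/+. Its hairpin difference was 0.27. Mtf2 was at 41.9, 46.7, 46.9, 68.3 and 48.6 FPKM, with a hairpin difference of -0.48, the lowest of any member in that pair.

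In the allele set the other PRC2 genes of the list varied less than Ezh1 and Phf19. This did not hold in the hairpin pair, where Jarid2 and Rbbp7 differed by 0.42 each. Suz12 was at 40.1, 41.5, 50.6, 57.1 and 47.6 FPKM and Eed at 51.5, 45.6, 45.3, 94.2 and 91.3. Suz12 differed by 0.33 and Eed by -0.18 in N/N against +/+. Jarid2, the highest PRC2 member in +/+, was at 79.2, 65.3, 69.8, 54.7 and 73.5 FPKM, with -0.18 in N/N and 0.42 in the hairpin pair. Rbbp4 was at 61.6, 59.97, 70.01, 90.3 and 94.2 FPKM and Rbbp7 at 65.5, 68.9, 76.2, 89.2 and 119.8. The 2 chaperone genes stood close to each other in every library, with a ratio of Rbbp4 to Rbbp7 of 0.786 to 1.01. Of these genes, Suz12, Mtf2 and Rbbp7 have a near copy elsewhere in mm9, which for Rbbp7 covers 77.9% of the transcript, and Ezh2, Suz12, Mtf2, Rbbp4 and Rbbp7 overlap an exon of a gene on the opposite strand. Their values are uncertain to that extent, as no source used here says whether counting used strand.

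**Figure D2:**
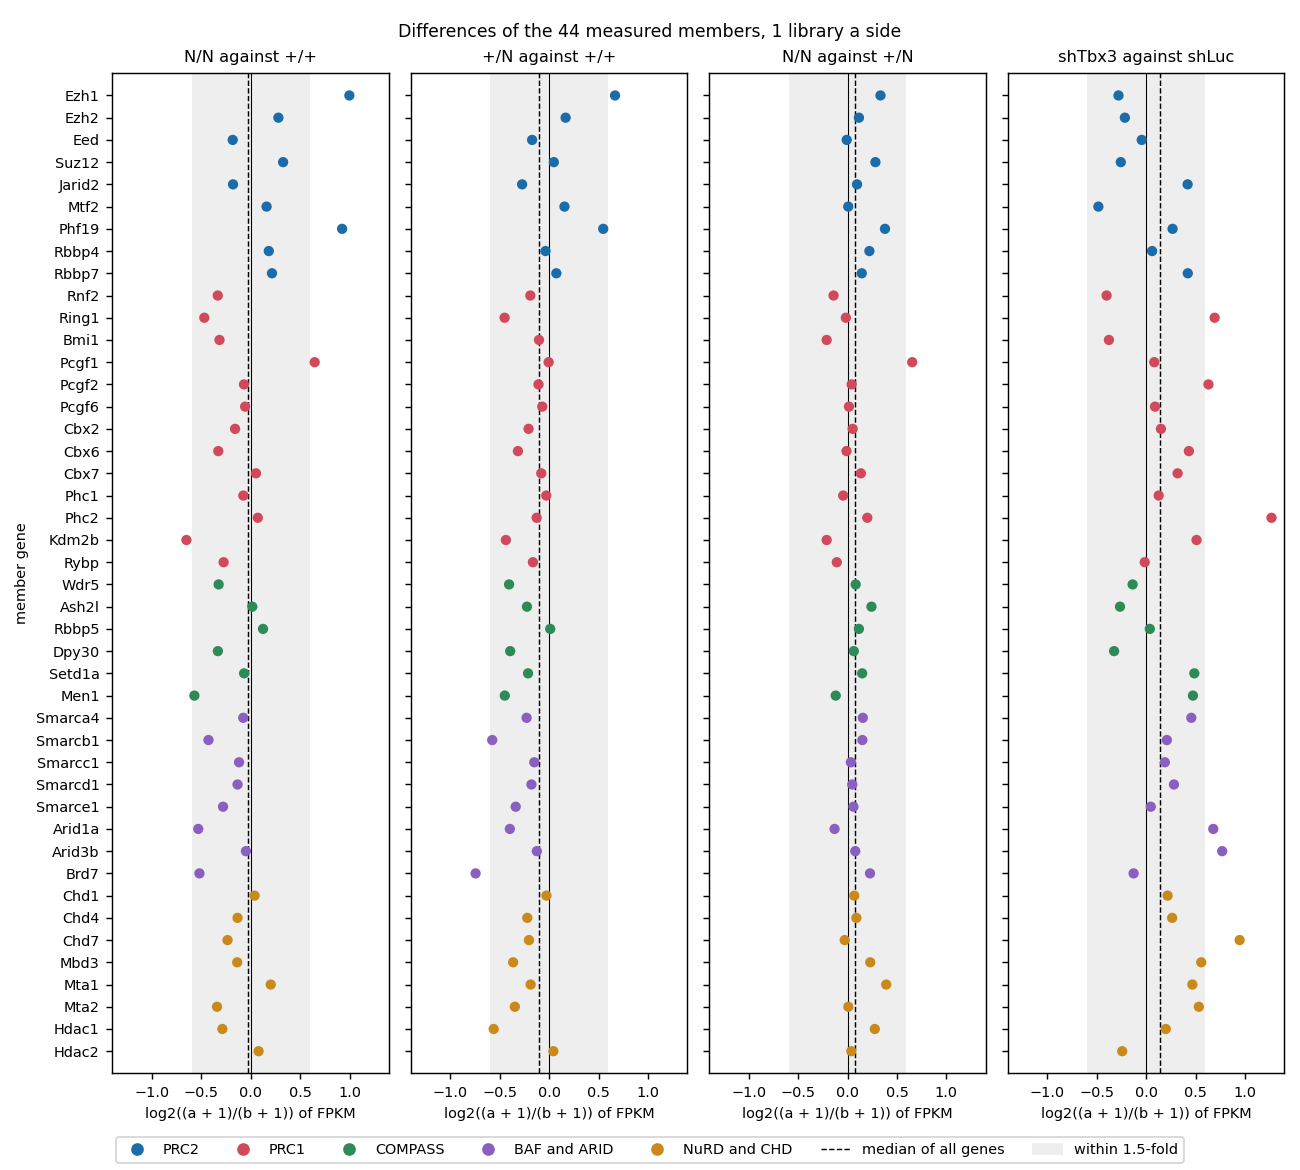
Log2 difference of each measured member in the 4 comparisons, grouped by complex, with the median of all genes as a line; each point is a difference between 1 library and another. In N/N against +/+ 7 of 9 PRC2 points lie above 0 and all 8 BAF and ARID points below it.

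Among the PRC1 genes, the catalytic subunit gene Rnf2 was at 23.3, 20.3, 18.2, 31.9 and 23.9 FPKM and its relative Ring1 at 5.48, 3.74, 3.67, 3.60 and 6.45. Rnf2 was the higher of the pair in each library, by 3.71 to 8.85 times. Ring1 was higher in shTbx3 than in shLuc by 0.69 on the log2 scale and lower in N/N than in +/+ (-0.47). Kdm2b, which encodes a protein that brings a variant PRC1 to unmethylated CpG islands, was at 21.9, 15.9, 13.6, 15.2 and 22.1 FPKM. It differed by -0.65 in N/N and -0.44 in +/N against +/+, and by 0.51 in the hairpin pair. Pcgf1, a partner in the same variant complex, was at 3.49, 3.47, 6.04, 5.91 and 6.31 FPKM, so the N/N value stood apart from the other two of the allele set. Its difference was 0.65 in N/N against either other allele library. A near copy elsewhere in mm9 covers 99.9% of the Pcgf1 transcript and another 31.5% of that of Kdm2b, so both values are uncertain. Exons of Kdm2b also overlap those of Orai1 and A930024E05Rik on the opposite strand.

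Phc2, a second polyhomeotic gene, gave the largest difference of any member. It was at 15.4, 14.05, 16.3, 7.91 and 20.5 FPKM, a hairpin difference of 1.27 (2.41-fold on the scale with 1 added). The shTbx3 value was the higher of the pair, and the 3 allele libraries lay close together. Pcgf2, which encodes a ring finger partner of the canonical complex, was at 25.9, 23.95, 24.7, 22.2 and 34.9 FPKM, with 0.63 in the hairpin pair. Its relative Bmi1 was at 0.680 to 1.23 FPKM, the lowest member of the set, and Pcgf2 exceeded it by 18.8 to 51.3 times. Phc1 was the highest PRC1 gene in each library, at 186.9, 183.1, 177.4, 126.5 and 138.2 FPKM, and its largest difference in the 4 comparisons was 0.13. The member with the highest-scoring site thus differed by little in all 4 comparisons.

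The remaining PRC1 genes stayed within 1.5-fold in the 4 comparisons. They were Cbx7, the chief Polycomb chromodomain gene of stem cells, at 44.4 to 55.8 FPKM, Cbx6 at 14.1 to 19.4, Cbx2 at 7.03 to 9.64, Pcgf6 at 15.3 to 28.8 and Rybp at 4.58 to 9.49. Near copies cover 80.4% of the transcript of Bmi1 and at least 99.9% of that of Rybp, so both are uncertain. All 13 measured PRC1 genes were below 0 in +/N against +/+, with a median of -0.13, where 35.0% of all genes were above 0 and the median of all was -0.10.

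COMPASS genes had no member past 1.5-fold. Dpy30, a small subunit shared by all COMPASS complexes, was the highest, at 152, 115, 120.5, 270.2 and 216 FPKM. Ash2l was at 98.4 to 137 FPKM, Wdr5 at 67.8 to 109, Rbbp5 at 13.7 to 21.3 and the methyltransferase gene Setd1a at 18.4 to 28.3. Rbbp5 has 3 near copies, the longest match covering 31.1% of its transcript, so its value is uncertain. Men1, which encodes menin, was at 23.5, 16.9, 15.5, 23.6 and 33.2 FPKM. It lay lowest in N/N, with -0.57 against +/+, just inside 1.5-fold, and was 0.47 higher in shTbx3 than in shLuc.

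The listed BAF and ARID genes were lower in both targeted allele libraries than in +/+ and mostly higher in shTbx3 than in shLuc. All 8 were below 0 in N/N (from -0.53 to -0.05) and in +/N (from -0.75 to -0.13), both against the same +/+ library. Of all genes, 46.04% and 35.0% were above 0 there, with medians of -0.03 and -0.10. In N/N against +/N, 7 of 8 were above 0 with a median of 0.07. There 68.1% of all genes were above 0, also with a median of 0.07. In the hairpin pair 7 of 8 were above 0, where 64.5% of all genes were. Brd7, a bromodomain subunit gene, was at 31.9, 18.6, 21.9, 40.9 and 37.3 FPKM. It was lowest in +/N, with -0.75 there and -0.52 in N/N. Arid1a, the large DNA-binding subunit, was at 35.1, 26.3, 23.9, 30.9 and 50.1 FPKM, with -0.53 in N/N and 0.68 in the hairpin pair. Smarcb1, a core subunit, was at 65.0, 43.2, 48.1, 54.5 and 63.2 FPKM, with -0.58 in +/N. Arid3b, a DNA-binding protein outside the complex, was at 21.4, 19.5, 20.7, 14.6 and 25.7 FPKM, with 0.77 in the hairpin pair, and its exons overlap a gene on the other strand. The ATPase gene Smarca4 was at 37.2 to 58.3 FPKM, Smarcc1 at 39.7 to 53.001, Smarcd1 at 40.7 to 49.7 and Smarce1 at 3.62 to 8.68. Near copies cover 46.6% of the transcript of Smarce1 and 17.5% of that of Smarcc1, and Smarcd1 overlaps an exon of Gm17349 on the opposite strand.

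Among NuRD and CHD genes, Chd7, a remodeller gene, was at 5.62, 4.74, 4.63, 4.34 and 9.29 FPKM. The shTbx3 value was 0.95 above shLuc on the log2 scale, and the 3 allele libraries lay close together. Mbd3, the NuRD scaffold gene and the highest of the group, was at 116.3, 90.1, 105.7, 76.7 and 113 FPKM, with 0.56 in the hairpin pair. The deacetylase gene Hdac2 was at 38.9 to 74.5 FPKM and Hdac1 at 4.17 to 11.7, a ratio of 5.36 to 9.62. Hdac1 differed by -0.56 in +/N against +/+ and is uncertain, as near copies cover 98.3% of its transcript. Mta1 was at 44.5, 38.9, 51.3, 37.4 and 52.1 FPKM, with 0.39 in N/N against +/N. The ATPase gene Chd4 was at 74.5 to 90.4 FPKM, Mta2 at 40.8 to 65.3 and Chd1 at 11.6 to 18.9.

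In the hairpin pair 6 of 44 members were past 1.5-fold higher in shTbx3 (Ring1, Pcgf2, Phc2, Arid1a, Arid3b and Chd7), beside 12.7% of all genes, and 0 were lower, beside 3.73%. The members' share was near the background. The median over genes of at least 5 FPKM in both was itself 0.16, and with it set to 0 the counts were 3 higher (Phc2, Arid3b and Chd7), beside 6.67% of all genes, and 1 lower (Mtf2), beside 7.27%. The median over all members was 0.20 and over all genes 0.14. By complex it was -0.04 in PRC2, 0.15 in PRC1, -0.05 in COMPASS, 0.25 in BAF and ARID and 0.37 in NuRD and CHD. Past 2-fold, Phc2 was higher (2.81% of all genes) and 0 members were lower (0.987%). Past 2-fold in the allele set, 0 members were higher and 0 lower in N/N against +/+ (1.37% and 1.92% of all genes), in +/N against +/+ (0.698% and 1.21%) and in N/N against +/N (0.317% and 0.308%).

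**Figure D3:**
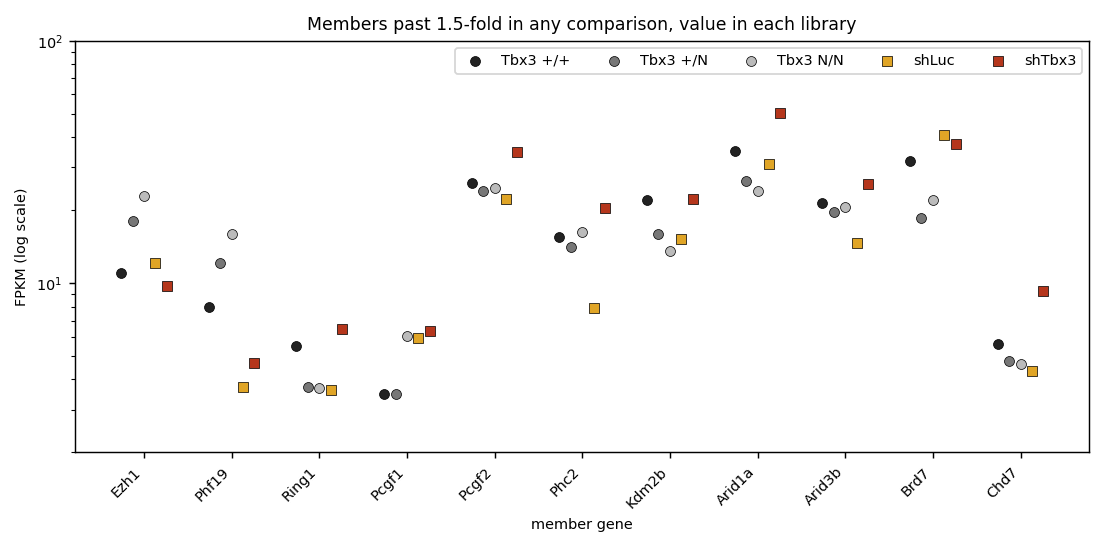
FPKM (log scale) in the 5 libraries for the 11 members past 1.5-fold in any comparison, 1 point per library with circles for the allele set and squares for the hairpin set. Ezh1 and Phf19 step from +/+ to N/N, and Phc2 is at 7.91 in shLuc and 20.5 in shTbx3.

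A site nearby went with no large difference. The 15 measured members with a site within 20 kb had a median of -0.07 in N/N against +/+ and the 29 without one -0.16, beside -0.01 and -0.03 for all placed coding genes with and without a site. In +/N against +/+ the members' medians were -0.04 and -0.21, beside -0.10 and -0.10 for the coding genes, and in the hairpin pair 0.19 and 0.21, beside 0.17 and 0.14. Of the 15, 9 are PRC2 genes. Outside PRC2, a division made after the values were seen, the 6 measured members with a site had medians of -0.13 in N/N and -0.21 in +/N against +/+, beside the same -0.16 and -0.21 for the 29 without one, and 0.52 in the hairpin pair beside 0.21. The allele gaps above were thus mainly those of the PRC2 genes.

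Other chromatin regulators and Polycomb target genes were read from lists beside the members. Of 62 other regulators 53 reached 1 FPKM in the allele comparisons and 52 in the hairpin pair. In N/N against +/+ 1 was past 1.5-fold higher (5.45% of all genes) and 4 lower (6.47%), in +/N against +/+ 0 (2.44%) and 2 (4.91%), in N/N against +/N 0 (0.977%) and 0 (0.801%), and in the hairpin pair 5 (12.7%) and 0 (3.73%). From +/+ to N/N, Pcgf5, a further PRC1 partner gene, stood at 9.41 and 16.97 FPKM and the BAF gene Smarcd3 at 6.85 and 2.35. Such genes went both ways in N/N against +/+. The BAF genes Smarcd2 and Bcl7a differed by 0.20 and 0.27, and Smarcd3 and Brd9 by -1.23 and -0.34. The PRC2 genes Phf1 and Aebp2 differed by 0.25 and -0.37. The PRC2-associated gene E130012A19Rik was at 70.9, 43.05, 36.4, 75.3 and 184.6 FPKM, with -0.94 in N/N against +/+ and 1.28 in the hairpin pair. Of 36 developmental genes that Polycomb complexes are known to cover, 13 were listed in bulk. Several reached 1 FPKM only in the library where they were higher, so no count or median over them is given. The endoderm regulators Gata4 (4.06 and 0.953 FPKM in +/+ and N/N) and Gata6 (3.14 and 0.615) are also endoderm markers here. The mesoderm regulator T, also among the streak markers, was at 0.605 FPKM in shLuc and 35.5 in shTbx3, and Hand1 at 0.414 and 6.24. Over the 13 the summed FPKM was 58.1, 41.6, 33.9, 24.6 and 86.6. Of this sum Cdkn2a alone held 38.1, 25.9, 19.6, 15.9 and 24.3 FPKM, the largest part in each allele library. The part of the endoderm and streak populations, whose marker sums are given above, was not tested.

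In single cells the PRC2 genes were among the members found most often. Of the 45 listed members, 15 reached 1 FPKM in 23 of 45 cells or more, beside 13.3% of the 11678 genes at that level in the pool, and 7 of the 15 were PRC2 genes. The members were also more abundant than most genes, with a median of 57.001 FPKM in the pool against 13.2 for all genes at 1 FPKM or more. Intervals below are exact Clopper-Pearson 95% intervals, cover counting error only, and treat the cells as 1 sample.

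Jarid2 was in 45 of 45 cells (100%, 92.1% to 100%), with a median of 237 FPKM and 147 in the pool. Rbbp4 was in 39 cells (86.7%, 73.2% to 94.9%), Suz12 and Mtf2 in 38 each (84.4%, 70.5% to 93.5%), Rbbp7 in 35, Eed in 34 (75.6%, 60.5% to 87.1%) and Ezh2 in 29 (64.4%, 48.8% to 78.1%). Thus 7 of the 9 PRC2 genes were found in most cells, while Phf19 was in 1 cell and Ezh1 in 0. Ezh1 was at 13.5 FPKM in the pool and listed at 0 in all 45 cells. The exact interval reaches 7.87%, and the limit of 3 counts in 45 is 6.67%. Both bound the share of cells with a value of 1 FPKM or more in such a table, not of cells that express the gene. Of 6659 genes at 10 FPKM or more in the pool 4.13% were in 0 cells, Ezh1 and Cbx2 (14.3 FPKM in the pool) among them. All of Ezh2, Eed and Suz12, the catalytic core, were at 1 FPKM or more in 23 cells, 2 of them in 13, 1 in 6 and 0 in 3.

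The PRC1 genes were found in few cells. Phc1 led with 24 cells (53.3%, 37.9% to 68.3%) at a pool level of 239.8 FPKM, followed by Cbx7 with 18 and Rnf2 with 10, and the other 11 were in 0 to 7 cells. Ring1 was in 1 cell, Pcgf2 in 6 and Bmi1 and Cbx8 in 0, these last at 0.944 and 0.417 FPKM in the pool. Rnf2 and Ring1 were found together in 0 cells. In the other groups Dpy30 was in 44 cells (97.8%, 88.2% to 99.9%), Arid1a in 42 (93.3%, 81.7% to 98.6%), Ash2l in 36 and Smarcc1 in 34. At the other end were Men1 in 3, Arid3b in 4, and Mta1 and Chd7 in 5 each. Among pairs of relatives, Rbbp4 and Rbbp7 were both found in 31 cells and Mta1 and Mta2 in 1. Hdac1 and Hdac2 were both found in 7, with Hdac1 alone in 15 and Hdac2 alone in 5. In the pool Hdac1 was the lower of the 2, at 10.97 FPKM against 78.3. Near copies cover 98.3% of the Hdac1 transcript and 77.9% of that of Rbbp7, so their cell values are uncertain.

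**Figure D4:**
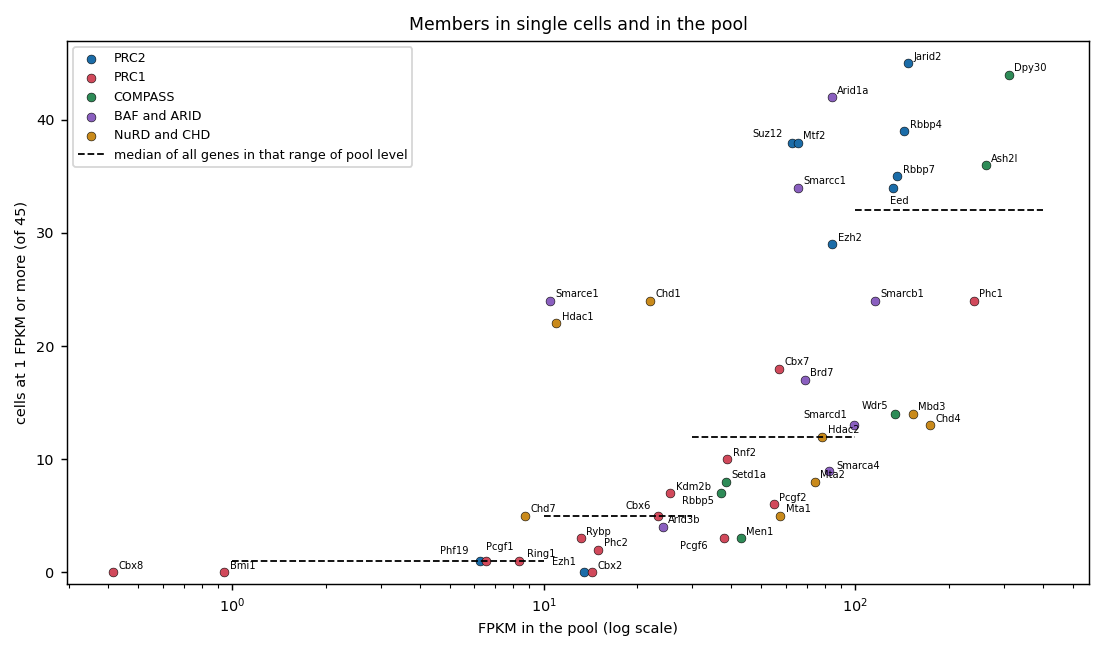
Number of the 45 cells in which each member was at 1 FPKM or more (y axis) against its FPKM in the pool (x axis, log scale), coloured by complex, with the median of all genes in each range of pool level as a dashed line. Jarid2 (45 cells), Suz12 and Mtf2 (38 each) lie above the line of their range, and Ezh1 and Cbx2 lie at 0 with Bmi1 and Cbx8.

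As a group, the members were found more often at higher pool levels, and more of them were found in cells with more genes. At 100 FPKM or more in the pool the 11 members had a median of 34 cells and all 985 genes 32, at 30 to 100 FPKM the 18 members 11 and all 2412 genes 12, and at 10 to 30 FPKM the 10 members 4.5 and all 3262 genes 5. As a group the members were thus found about as often as genes of like abundance. Single members departed from this both ways. Chd4, Mbd3 and Wdr5, at 174, 153 and 134 FPKM in the pool, were in 13, 14 and 14 cells. Smarce1, Hdac1 and Chd1, at 10.5, 11.0 and 21.9 FPKM, were in 24, 22 and 24. The number of members at 1 FPKM or more per cell ran from 7 to 27 with a median of 16, beside 1642 to 3295 genes of all kinds, and over the 45 cells Spearman's rho between both counts was 0.81. The 23 cells listed first had a median of 2446 genes and 17 members, and the 22 listed last 1973 and 14.5, and the part of this difference in the shares was not tested. Counted within the 23 cells listed first, 14 members were in most cells. Within the 22 listed last, 16 members were in 11 cells or more, with Smarcb1, Smarce1 and Chd1 at exactly 11.

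The mean of the cells departed from the pool along the base composition of the transcripts. Of 39 members at 10 FPKM or more in the pool, 18 had a cell mean at least 5-fold below the pool, beside 1839 of 6497 such genes with a transcript. The median log2 ratio of cell mean to pool was -2.21 over these members and -1.11 over those genes, so the members lay further below the pool. Chd4 was at 174 FPKM in the pool and 6.39 in the mean of cells, and Smarce1, which has 3 near copies, at 10.5 and 60.2. Over the 39 members rho between GC content and the log2 ratio of cell mean to pool was -0.63, and over all 6497 genes -0.46, while with transcript length it was -0.21 and -0.24. Suz12 and Mtf2, with AT-rich transcripts, had cell means of 79.7 and 109.7 FPKM against 62.5 and 65.4 in the pool. The GC-rich transcripts of Phc2, Men1, Mta1 and Cbx2 lay far below their pool values. Other members departed from this trend, as Hdac2 (41.9% GC) was at -3.11 and Smarcb1 (55.2% GC) at -0.47. These are descriptions over genes that share the same cells and the same pool.

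**Figure D5:**
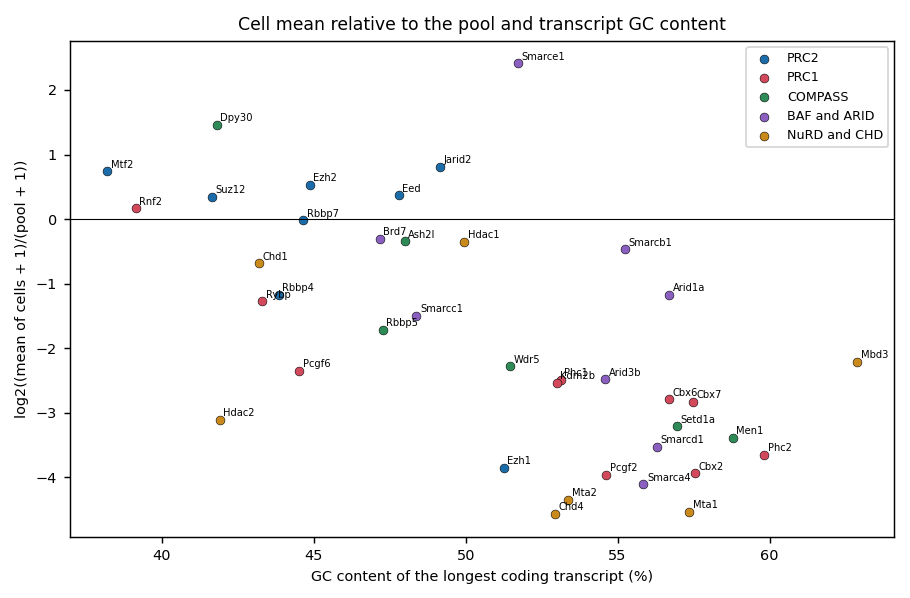
Log2 ratio of the cell mean to the pool, each with 1 FPKM added (y axis), against the GC content of the longest coding transcript in percent (x axis), for the members at 10 FPKM or more in the pool. Mtf2 and Suz12 lie at the AT-rich end above 0, most members above 50% lie below 0, and Smarce1 stands highest.

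Relations between cells were weak. For the 23 members in at least 25% of cells, rho with Tbx3 (itself in 13 cells) ran from -0.43 (Brd7) to 0.48 (Cbx7) with a median of 0.01. Ezh2 was at 0.45, but at 0.00 in the cells listed first and 0.72 in those listed last, and Cbx7 at 0.41 and 0.59. Over the 253 pairs of these members rho ran from -0.40 (Jarid2 and Dpy30) to 0.50 (Mbd3 and Hdac1), with a median of 0.06. Mbd3 and Hdac1, both of NuRD, gave 0.56 and 0.53 in the first and last cells. Within PRC2, Ezh2 with Eed gave 0.38, Ezh2 with Suz12 0.30 and Eed with Suz12 -0.02. The cells share their libraries' depth, rho between a member and the number of genes ran from -0.09 to 0.64, and in sparse values such weak relations are no finding.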

How the data were processed

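Bulk libraries had single reads, 26 or 100 bp long, per the labels. The authors made bulk FPKM values with TopHat, Cufflinks and Cuffdiff, and single-cell FPKM values with TopHat and Cuffnorm, on mm9, per the submitters' processing notes. Which library had which read length, the annotation, the use of strand, the filter behind the bulk table and all versions but Bowtie 1.0 are not given in the sources used here. Both tables were scaled separately. Bowtie 1.0 and HOMER are named for the sites, per the submitters' processing notes, while the deposited site names begin with MACS. The scale of the deposited score is not given, and it was used only to describe and rank sites.

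Differences were log2((a + 1)/(b + 1)), a pseudocount of 1 FPKM, for genes that reached 1 FPKM in one of the libraries. Site positions and sequences were read on NCBIM37 (mm9) with GENCODE vM1 protein-coding gene starts, sequences with pysam 0.24.0. Near copies were searched with BLAST+ (blastn), version 2.17.0, and were stretches of at least 400 bases at 95% identity or more. Tables were handled with pandas 2.3.3 and numpy 2.4.6 in Python 3.11.15, intervals and rho came from SciPy 1.17.1, and figures from matplotlib 3.10.9. The fold differences and the search for sites within a window were tested on simulated data with planted answers, and the other calculations were not.

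The members and lists were chosen with earlier results of these data known. Values in every library are given for members past 1.5-fold, for the 3 largest differences each way of a comparison, for the highest and lowest of each complex and for members near a site; ranges stand for some. Alternatives changed scaling, pseudocount, low-value filter, fold, site window and the level in a cell.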

Additional observations from a re-analysis of the deposited data

How the results depend on the processing

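With 1 library a group, a count of members past a fold has no error of its own and moves with the scale. Each count is followed by the share of all genes under the same setting. In N/N against +/+ the 3 higher became 0 at 2-fold (1.37%), and the 1 lower became 2 with a pseudocount of 0.1 (9.18%), 0 with a pseudocount of 5 (2.81%) and 0 at 2-fold (1.92%). In +/N against +/+ the 1 higher became 2 with a pseudocount of 0.1 (3.90%), 0 with 5 (1.08%), 2 with the median of genes set to 0 (3.95%), 2 without small RNA genes (2.77%) and 0 at 2-fold (0.698%). The 1 lower became 3 with a pseudocount of 0.1 (7.44%) and 0 at 2-fold (1.21%). In N/N against +/N the 1 higher became 0 with a pseudocount of 5 (0.546%), 0 with the median set to 0 (0.669%) and 0 at 2-fold (0.317%). In shTbx3 against shLuc the 6 higher became 3 with the median set to 0 (6.67%) and 1 at 2-fold (2.81%), and the 0 lower became 1 with a pseudocount of 0.1 (Bmi1; 5.70%) and 1 with the median set to 0 (Mtf2; 7.27%).

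The 16 members with a site became 9 with sites at or above the median score (4.77% of coding genes). The other 39 recomputed counts stayed within 1.5 times of the reported ones. Among those were the members in at least 23 cells, which numbered 10 to 21. Starts of all coding transcripts, nearest starts, members outside PRC2 and the cells listed first and last were chosen after seeing the data. Depth is not given, so what a low or zero value in a library or cell can show is not known.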
